A study of Homo sapiens with 6 samples.

Results

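The genes of the fibroblast growth factor (FGF), platelet-derived growth factor (PDGF) and vascular endothelial growth factor (VEGF) families were described in 3 lines of MDA-MB-231 cells. Members were chosen by a rule on gene symbols, with earlier results of these data known. The rule took the numbered FGF genes, FGFR1 to FGFR4, FGFRL1, FGFBP1, the PDGF and VEGF genes lettered A to D, PGF, PDGFRA, PDGFRB, KDR, FLT1 and FLT4. This rule found 42 of the 61806 genes in the deposited table.

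MDA-MB-231 is a human triple-negative breast cancer cell line. HMGA2, an architectural chromatin protein that binds AT-rich DNA through its AT-hooks, was knocked down by a short hairpin RNA delivered with a lentivirus, and infected cells were selected with puromycin. The 3 lines, shNC (the control), shHMGA2-1 and shHMGA2-2 (different hairpins against HMGA2), were sequenced in 2 libraries each after mRNA capture. The methods describe knockdown lines grown out from 1 clone and do not state this for shNC, and the library names of the samples titled shNC read WT and those titled shHMGA2-1 carry SH2, so that the sample titles were followed. Each group was thus a single line, so an effect of a hairpin and any other difference between lines cannot be told apart. Nothing in the labels says that the 2 libraries of a line came from separate cultures, so p-values measure only the spread between these samples, which may be technical.

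FGFs are secreted ligands that bind receptor tyrosine kinases (FGFR1 to FGFR4) with heparan sulfate, and drive growth, migration and survival largely through the RAS-ERK cascade, whereas the FGF homologous factors stay inside the cell. PDGF dimers signal through PDGFRA and PDGFRB, which are typical of fibroblasts and pericytes. VEGF ligands made by tumor cells act mainly on endothelial receptors (FLT1, KDR and FLT4), so a carcinoma line is usually a source of these ligands more than a target.

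The sequences just before the transcription start of 4 ligand genes are shown because these genes were lower in shHMGA2-2 than in both other lines. RefSeq promoter windows (GRCh38.p14) were matched by symbol for 30 of the 42 genes, and the 250 bases before the start are printed 5′ to 3′ on the strand of the gene. Capitals mark AATT, a short AT run of the kind that AT-hooks bind, and GGGCGG, the GC box of the SP1 family, each searched on both strands (so that CCGCCC is a GC box on the other strand). The letters of these motifs did not overlap each other. FGF5 (chr4:80266338-80266587, plus strand), FGF1 (chr5:142698071-142698320, minus strand), PDGFA (chr7:520227-520476, minus strand) and PGF (chr14:74955598-74955847, minus strand) read as follows.
FGF5: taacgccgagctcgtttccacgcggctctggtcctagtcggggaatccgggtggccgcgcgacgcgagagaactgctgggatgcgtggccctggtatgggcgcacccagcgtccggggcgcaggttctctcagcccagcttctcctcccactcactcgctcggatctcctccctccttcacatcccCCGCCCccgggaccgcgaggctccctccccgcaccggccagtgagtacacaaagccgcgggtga
FGF1: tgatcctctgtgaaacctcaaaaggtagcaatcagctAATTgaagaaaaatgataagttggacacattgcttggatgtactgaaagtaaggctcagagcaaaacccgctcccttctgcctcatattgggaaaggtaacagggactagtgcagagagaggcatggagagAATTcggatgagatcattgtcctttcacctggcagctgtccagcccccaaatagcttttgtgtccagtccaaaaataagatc
PDGFA: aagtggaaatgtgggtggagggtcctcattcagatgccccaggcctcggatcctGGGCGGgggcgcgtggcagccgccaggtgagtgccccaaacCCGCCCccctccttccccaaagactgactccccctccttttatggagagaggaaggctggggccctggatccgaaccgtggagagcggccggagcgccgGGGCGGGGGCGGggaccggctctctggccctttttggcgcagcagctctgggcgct
PGF: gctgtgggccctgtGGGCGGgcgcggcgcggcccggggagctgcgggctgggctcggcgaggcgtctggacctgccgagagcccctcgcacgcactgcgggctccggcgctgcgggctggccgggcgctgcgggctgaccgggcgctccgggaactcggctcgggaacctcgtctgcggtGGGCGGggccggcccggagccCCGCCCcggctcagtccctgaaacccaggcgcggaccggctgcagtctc

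AATT occurred 2 times in the FGF1 window and 0 times in those of FGF5, PDGFA and PGF. GGGCGG occurred 4 times in PDGFA, 3 in PGF, 1 in FGF5 and 0 in FGF1. Among all 27305 promoter windows of this length, 43.7% held AATT and 42.3% held GGGCGG. A and T made up 55.2% of the FGF1 window, 31.2% of the FGF5 and of the PDGFA window and 20% of the PGF window, beside a median of 42% over all windows. These matches describe the letters only, and binding was not measured here.

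The libraries held 16461178 to 17167293 counts, and 3 counts, the upper limit compatible with observing 0, equaled 0.175 to 0.182 CPM (counts per 1e6 of the library) and served as the floor. HMGA2 had 2126 and 2161 counts (shNC), 858 and 989 (shHMGA2-1) and 435 and 482 (shHMGA2-2), 2.45-fold and 4.94-fold lower than the control (edgeR adjusted p = 1.98e-11 and 1.81e-16). Markers of MDA-MB-231 (VIM, CD44, EGFR, AXL, FN1 and KRT18) were present in every library, with a summed level of 682 to 816 FPKM (counts scaled to exon length and library total), most of it from VIM, while a list of 6 luminal, epithelial and hormone receptor genes summed to 5.07 to 9 FPKM. In the leukocyte list CD3E was at 0, and the 6 genes summed to at most 0.54 FPKM. Within the first list FN1 was 14.7-fold and 26.7-fold lower in shHMGA2-1 and shHMGA2-2, and EGFR 2.91-fold lower in shHMGA2-2, and these were DEGs. Within the luminal, epithelial and hormone receptor list, GATA3 was a higher DEG in shHMGA2-2 (58 and 41 counts in shNC, 262 and 318 in shHMGA2-2). FOXA1 was a lower DEG there (110 and 94 counts in shNC, 5 and 1 in shHMGA2-2).

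Of the 42 genes, 9 had 0 counts in all 6 libraries: FGF3, FGF4, FGF6, FGF8, FGF10, FGF16, FGF21, FGF23 and PDGFRA. Another 5 (FGF7, FGF9, FGF19, FGFBP1 and FLT4) never exceeded the floor. A further 9 rose above it in some library but were too low for the test, namely FGF11, FGF12, FGF17, FGF18, FGF20, FGF22, FGFR2, FLT1 and VEGFD, with 0 to 11 counts. The remaining 19 were tested. The most abundant per exon length in shNC was FGF5 at 76.4 ± 1.29 FPKM (SD, n = 2), followed by PDGFC at 24.0 ± 0.66, VEGFC at 22.2 ± 0.10 and VEGFB at 13.5 ± 0.04. The other 38 lay at or below the 5.83 ± 0.06 FPKM of FGFR1.

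**Figure D1:**
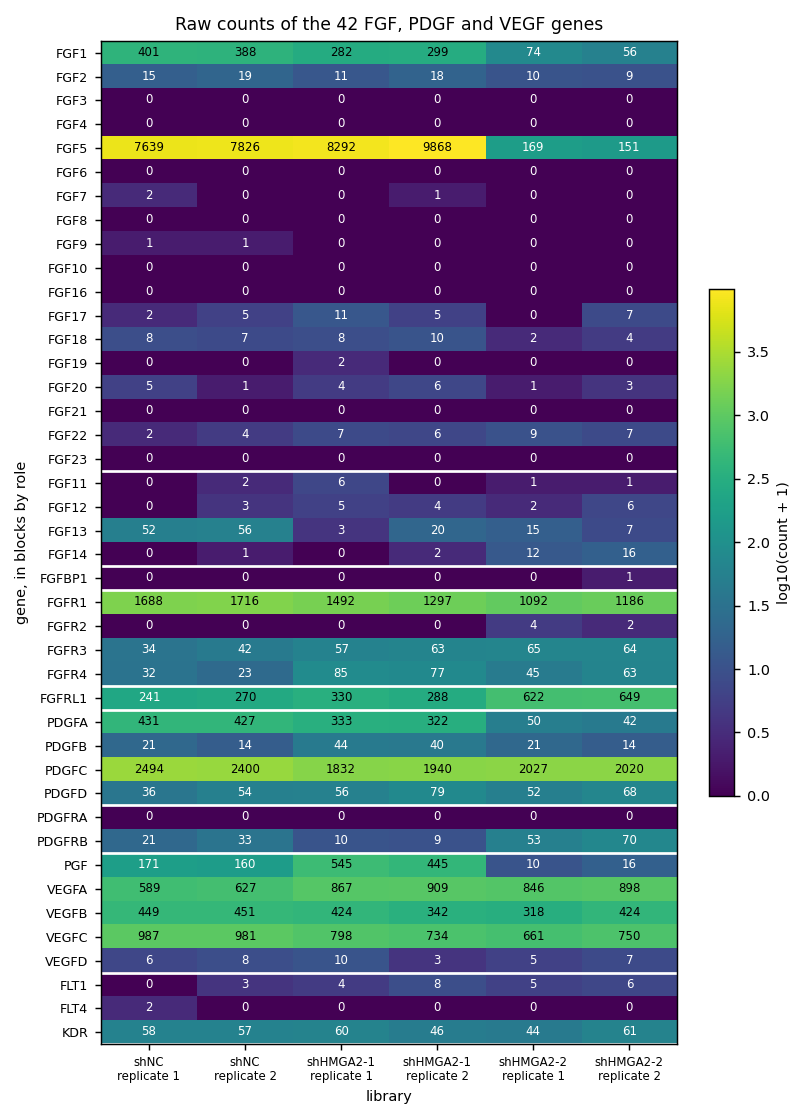
Raw counts of the 42 genes (rows, in blocks by role) in the 6 libraries (columns), with color on a log10(count + 1) scale. FGF5 fell from 7639 or more counts to 169 and 151 in shHMGA2-2, and 9 genes are at 0 throughout.

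Whether each gene differed between lines was tested with edgeR's quasi-likelihood test across all 16110 genes that passed a filter on low counts, with Benjamini-Hochberg adjustment. Genes that changed 2-fold or more with an adjusted p under 0.05 were taken as differentially expressed (DEGs). In shHMGA2-1 against shNC, 2 of the 19 were DEGs on the lower side (FGF13 and PDGFRB), where 3.59% of all tested genes were, and 3 on the higher side (FGFR4, PDGFB and PGF), where 4.89% were. An adjusted p under 0.05 at any size was reached by 11 of 19, with 33.5% among all tested genes.

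In shHMGA2-2 against shNC, 5 of the 19 were lower DEGs (FGF1, FGF5, FGF13, PDGFA and PGF) beside 9.65% of all tested genes, and 2 were higher DEGs (FGFRL1 and PDGFRB) beside 11.7%, leaving aside FGF14, which was called higher but passed the filter only through shHMGA2-2. At any size 15 of 19 passed, FGF14 included, where 58.8% of all tested genes did. Between the knockdown lines, shHMGA2-2 had 5 lower DEGs (FGF1, FGF5, PDGFA, PDGFB and PGF; 7.27% of all) and 2 higher ones (FGFRL1 and PDGFRB; 7.83% of all) relative to shHMGA2-1, again leaving FGF14 aside, and 10 of 19, FGF14 included, passed at any size (50.2% of all). The median absolute log2 fold change of the 19 was 0.47 in shHMGA2-1 and 0.89 in shHMGA2-2 against shNC, beside 0.26 and 0.47 over all tested genes. These medians include FGF14, which entered at 0.78 and 4.43 and passed the filter only through shHMGA2-2.

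With the 4 shHMGA2 libraries as 1 group against shNC, 0 of the 19 were DEGs by edgeR, beside 3.09% of all tested genes. In that comparison the difference between the knockdown lines counts as spread. An unadjusted p under 0.05 was reached by 7 of the 19. DESeq2 called 2 of them, FGF13 and FGFR4, and limma on FPKM called 0. Across the lines taken separately, FGF13 was the only one of the 19 that was a DEG in the same direction in both, and PGF and PDGFRB were DEGs in opposite directions. Both comparisons use the same shNC libraries. Among all 16110 tested genes, 884 were DEGs in the same direction in both lines and 79 in opposite directions.

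**Figure D2:**
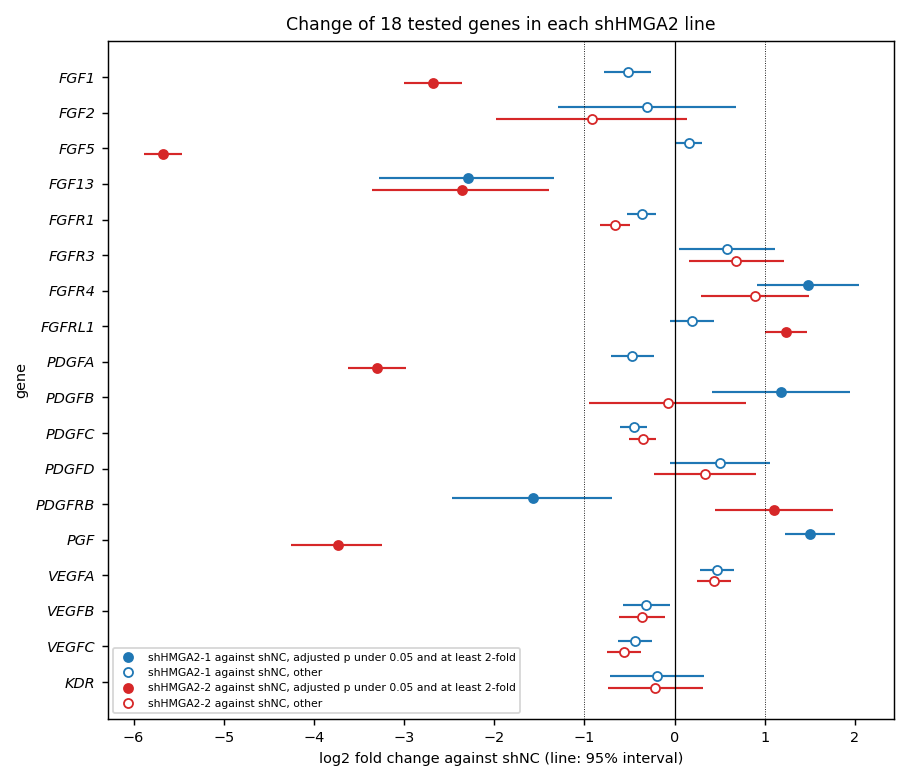
Log2 fold change against shNC of 18 tested genes in shHMGA2-1 (blue) and shHMGA2-2 (red), with 95% intervals as lines, dotted lines at 2-fold and filled points for DEGs. FGF14 is left out because shNC did not exceed the floor. The point farthest from 0 is FGF5 in shHMGA2-2, at -5.67.

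FGF5, a secreted ligand that binds FGFR1 and FGFR2 and is known for ending the growth phase of hair, showed the largest difference among the 19 tested genes. It had 7639 and 7826 counts (shNC), 8292 and 9868 (shHMGA2-1) and 169 and 151 (shHMGA2-2). The shHMGA2-2 libraries lay far below the other 4, whereas shHMGA2-1 and shNC overlapped after TMM normalization. In bulk RNA, fewer cells that express a gene and less RNA per cell cannot be told apart. The fold change in shHMGA2-2 was 51.0-fold lower than shNC (log2 -5.67, SE 0.10, edgeR adjusted p = 6.29e-23) and 56.8-fold lower than shHMGA2-1. In shHMGA2-1 the difference from shNC was 0.15 on the log2 scale (95% interval 0.0013 to 0.31, edgeR adjusted p = 0.117), and without shHMGA2-1 replicate 1 it was 0.29 with an adjusted p of 0.000156.

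FGF5 lies on chromosome 4 from 80266639 to 80336680. Of its 10 nearest tested genes, 5 on each side, 3 were called lower in shHMGA2-2 (ANTXR2, CFAP299 and PRKG2) and 1 higher. Among all tested genes 9.65% and 11.7% were. PRKG2 had 16 and 11 counts (shNC), 5 and 3 (shHMGA2-1) and 3 and 0 (shHMGA2-2). It passed the filter only through shNC and was called lower in shHMGA2-1 as well. CFAP299 had 11 and 12 counts (shNC), 11 and 21 (shHMGA2-1) and 0 and 5 (shHMGA2-2). ANTXR2, a receptor for anthrax toxin, had 2641 and 2694 counts in shNC against 932 and 938 in shHMGA2-2. FGF5 shares 2.27% of its exonic bases with CFAP299 on the same strand, but CFAP299 had 0 to 21 counts in any library.

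FGF1, acidic FGF, which binds all 4 receptors, had 401 and 388 counts (shNC), 282 and 299 (shHMGA2-1) and 74 and 56 (shHMGA2-2). The 3 lines did not overlap, and shHMGA2-1 lay between the others. The level of 24.2 ± 0.56 CPM (SD, n = 2) in shNC compared with 16.9 ± 0.96 in shHMGA2-1 (1.43-fold lower, edgeR adjusted p = 0.00226) and 3.79 ± 0.82 in shHMGA2-2 (6.40-fold lower, edgeR adjusted p = 2.22e-13). FGF2, basic FGF, had 15 and 19 counts (shNC), 11 and 18 (shHMGA2-1) and 10 and 9 (shHMGA2-2). Its log2 fold change in shHMGA2-2 was -0.91 (95% interval -1.98 to 0.14) and did not pass. NUDT6, which overlaps 11.9% of the exonic bases of FGF2 on the opposite strand, had 138 to 176 counts, and since the strand setting is not stated, reads of the pair cannot be told apart in the overlap.

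As a family, the FGF ligands summed to 80.9 and 82.5 FPKM (shNC), 85.2 and 101 (shHMGA2-1) and 3.00 and 2.79 (shHMGA2-2). FGF5 made up 93.4% and 93.7% of this sum (shNC), 95.1% and 95.7% (shHMGA2-1) and 57.3% and 54.8% (shHMGA2-2). FGF1 made up 5.86% and 5.56%, 3.87% and 3.47%, and 30.0% and 24.4%, respectively. The other secreted FGFs had at most 19 counts each in any library, and FGF22 had the largest share among them in shHMGA2-2 (6.67% and 5.38%, from 9 and 7 counts).

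**Figure D3:**
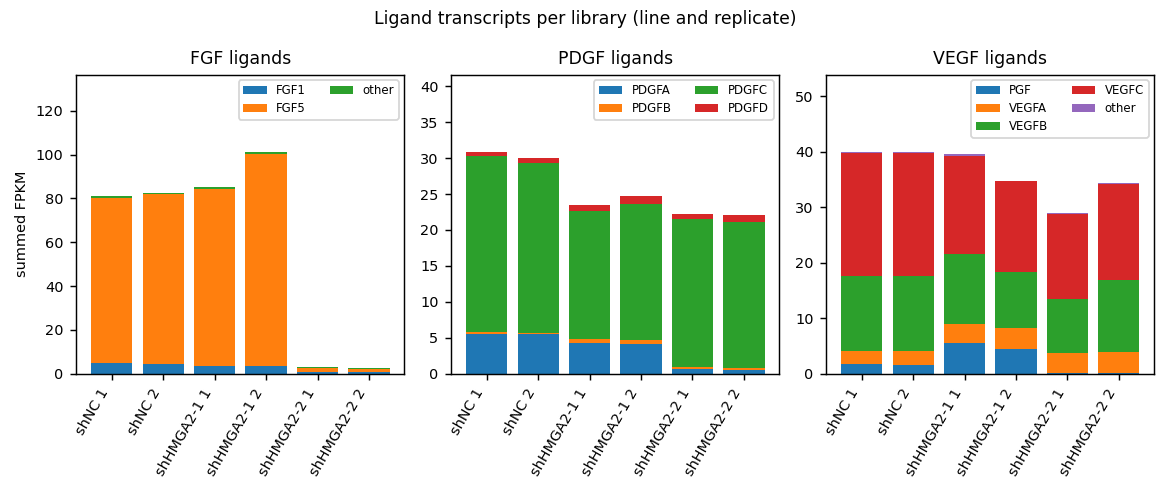
Summed FPKM of the FGF, PDGF and VEGF ligands in each library (stacked bars by gene, each panel with its own axis from 0). FGF5 fills most of the FGF bar in shNC and shHMGA2-1, and the FGF sum is 3.00 and 2.79 FPKM in shHMGA2-2.

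Among the intracellular homologous factors, which bind voltage-gated sodium channels, FGF13 fell in both lines. It had 52 and 56 counts (shNC), 3 and 20 (shHMGA2-1) and 15 and 7 (shHMGA2-2). All 4 knockdown libraries were below both controls, with a wide spread within shHMGA2-1. The log2 fold change was -2.30 (SE 0.47, edgeR adjusted p = 0.00044) in shHMGA2-1 and -2.36 (SE 0.47, edgeR adjusted p = 0.000139) in shHMGA2-2. In shHMGA2-1 it was -1.49 without replicate 1 and -4.21 without replicate 2, and in shHMGA2-2 it was -3.03 without replicate 1. With limma on either FPKM scale FGF13 was not a DEG in either line. Over all alternatives its smallest log2 fold change was -0.16 in shHMGA2-1 and -0.17 in shHMGA2-2.

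FGF14 passed the filter only through shHMGA2-2, where it had 12 and 16 counts against 0 and 1 (shNC) and 0 and 2 (shHMGA2-1). The ratio of counts to shNC was 28.8, with a 95% interval of 4.76 to 1176 for counting error only, and its called difference from shHMGA2-1 was not kept by DESeq2 (adjusted p = 0.0513). On log2(FPKM + 1) with limma, the difference from shNC was not called either (adjusted p = 0.113). ITGBL1, an integrin beta-like gene on the opposite strand that shares 31.6% of the exonic bases of FGF14, had 2 and 2 counts (shNC), 0 and 1 (shHMGA2-1) and 44 and 31 (shHMGA2-2). ITGBL1 was also called higher but, like FGF14, passed the filter only through shHMGA2-2. Without a stated strand setting the reads of the pair cannot be told apart.

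FGFR1 was the most abundant FGF receptor in every line, with 87.8% and 88.1% of the FPKM summed over FGFR1 to FGFR4 in shNC and 72.2% to 74.7% in the knockdown libraries. It had 1688 and 1716 counts (shNC), 1492 and 1297 (shHMGA2-1) and 1092 and 1186 (shHMGA2-2). The knockdown libraries were all below the controls. The decrease was 1.29-fold in shHMGA2-1 (edgeR adjusted p = 0.000868) and 1.58-fold in shHMGA2-2 (edgeR adjusted p = 1.66e-07), under the 2-fold of a DEG.

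FGFR4 moved the other way from a low level. It had 32 and 23 counts (shNC), 85 and 77 (shHMGA2-1) and 45 and 63 (shHMGA2-2). The controls were lowest and shHMGA2-1 highest, with no overlap between lines. The rise was 2.78-fold in shHMGA2-1 (95% interval 1.89 to 4.12, edgeR adjusted p = 0.000138) and 1.85-fold in shHMGA2-2 (95% interval 1.23 to 2.80, edgeR adjusted p = 0.0101), and the difference between the knockdown lines had an edgeR adjusted p of 0.0475. That difference was lost in 10 alternatives, among them the replicate block (adjusted p = 0.0609) and the fits without shHMGA2-1 replicate 1 (0.154) or 2 (0.0786) or shHMGA2-2 replicate 1 (0.306). In shHMGA2-2 the change reached 2-fold without shNC replicate 1 (log2 1.14) or without its own replicate 1 (log2 1.09), and the call at any size was lost without shNC replicate 2 (adjusted p = 0.112) or its own replicate 2 (adjusted p = 0.138) and with DESeq2 (adjusted p = 0.0956). FGFR3 had 34 and 42 counts (shNC), 57 and 63 (shHMGA2-1) and 65 and 64 (shHMGA2-2), and passed in shHMGA2-2 alone (1.60-fold higher, edgeR adjusted p = 0.0242). This was lost with DESeq2 (adjusted p = 0.194) and without shNC replicate 1 (0.165), shHMGA2-2 replicate 1 (0.0924) or shHMGA2-2 replicate 2 (0.0678). The direct difference between the lines did not pass for FGFR3 (log2 0.10, 95% interval -0.39 to 0.59). FGFR2 was seen only in shHMGA2-2, with 4 and 2 counts.

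FGFRL1 encodes an FGF receptor that lacks the tyrosine kinase domain. It had 241 and 270 counts (shNC), 330 and 288 (shHMGA2-1) and 622 and 649 (shHMGA2-2). Both shHMGA2-2 libraries were above the other 4. The level rose from 15.7 ± 1.27 CPM (SD, n = 2) in shNC to 36.9 ± 0.32 in shHMGA2-2, 2.35-fold (95% interval 2.00 to 2.76, edgeR adjusted p = 9.97e-10). Against shHMGA2-1 the rise was 2.05-fold and fell under 2-fold without shHMGA2-1 replicate 2 (log2 0.96). By FPKM FGFRL1 (8.86 ± 0.22) was above FGFR1 (4.01 ± 0.21) in shHMGA2-2, whereas in shNC it was below (3.47 ± 0.28 against 5.83 ± 0.06). This order depends on the length scaling, with an exonic size of 4342 bases for FGFRL1 and 17201 for FGFR1. By counts FGFRL1 stayed below FGFR1 in shHMGA2-2 (622 and 649 against 1092 and 1186). Of the 10 tested genes nearest to FGFRL1 on chromosome 4, 4 were also higher DEGs in shHMGA2-2 (SLC26A1, IDUA, SPON2 and CTBP1-AS), beside 11.7% of all tested genes.

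**Figure D4:**
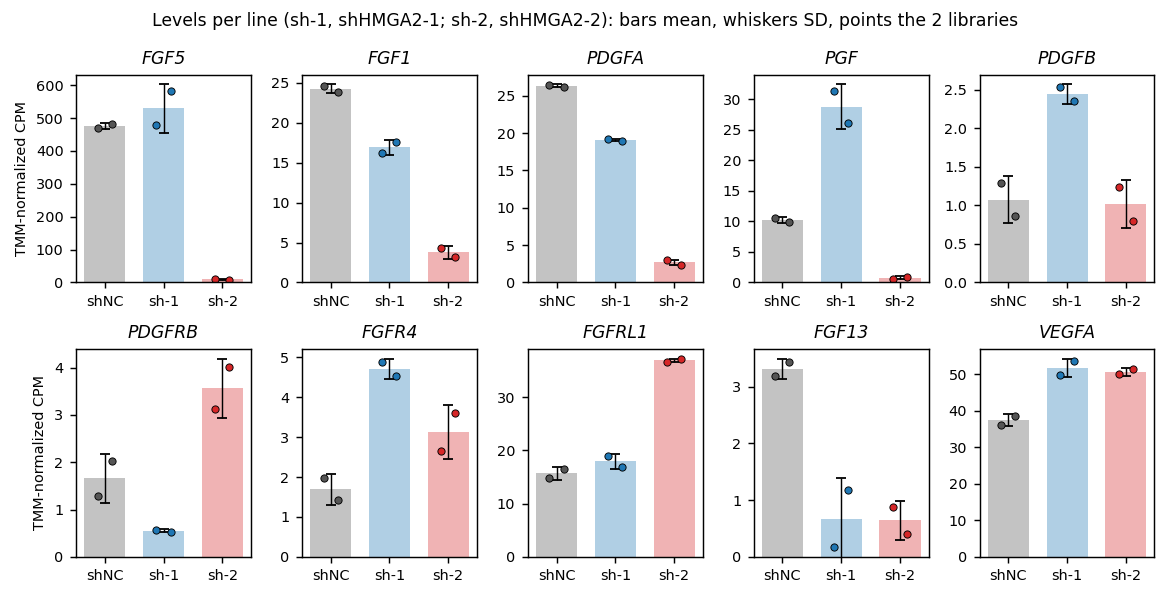
TMM-normalized CPM of 10 genes in shNC, shHMGA2-1 (sh-1) and shHMGA2-2 (sh-2), each panel with its own axis from 0 (bars, mean; whiskers, SD, cut at 0; points, the 2 libraries). PGF is highest in shHMGA2-1 and lowest in shHMGA2-2, and PDGFRB shows the opposite order.

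Among the PDGF ligands, PDGFC carried 75.9% to 92.3% of the summed FPKM in every library. It had 2494 and 2400 counts (shNC), 1832 and 1940 (shHMGA2-1) and 2027 and 2020 (shHMGA2-2). Both knockdown lines were below the controls, by 1.37-fold (edgeR adjusted p = 2.41e-05) and 1.28-fold (edgeR adjusted p = 0.000173). The family summed to 30.8 and 30.0 FPKM (shNC), 23.4 and 24.7 (shHMGA2-1) and 22.3 and 22.0 (shHMGA2-2).

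PDGFA encodes the A chain, a ligand of PDGFRA. It had 431 and 427 counts (shNC), 333 and 322 (shHMGA2-1) and 50 and 42 (shHMGA2-2). The lines did not overlap. It fell 1.38-fold in shHMGA2-1 (edgeR adjusted p = 0.00291) and 9.83-fold in shHMGA2-2 (log2 -3.30, SE 0.16, edgeR adjusted p = 3.77e-15). Its share of the PDGF ligand FPKM was 17.9% and 18.3% in shNC and 2.97% and 2.498% in shHMGA2-2. None of the 7 nearest tested genes on chromosome 7 was a DEG in shHMGA2-2 in either direction.

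PDGFB, the B chain, which binds both PDGF receptors, had 21 and 14 counts (shNC), 44 and 40 (shHMGA2-1) and 21 and 14 (shHMGA2-2). The counts of shNC and shHMGA2-2 were equal, and those of shHMGA2-1 were higher. The rise in shHMGA2-1 was 2.26-fold (95% interval 1.34 to 3.86, edgeR adjusted p = 0.0155). This call was lost with DESeq2 (adjusted p = 0.147), without shNC replicate 2 (0.151) and without shHMGA2-1 replicate 1 (0.0648), and the called difference between the knockdown lines was lost with DESeq2 (0.0858) and without shHMGA2-2 replicate 2 (0.0929). PDGFD had 36 and 54 counts (shNC), 56 and 79 (shHMGA2-1) and 52 and 68 (shHMGA2-2), and passed in no comparison.

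Of the PDGF receptors, PDGFRA had 0 counts in all 6 libraries, so only PDGFRB was measurable. It had 21 and 33 counts (shNC), 10 and 9 (shHMGA2-1) and 53 and 70 (shHMGA2-2). The knockdown lines lay on opposite sides of the controls. It fell 2.98-fold in shHMGA2-1 (95% interval of the ratio to shNC 0.18 to 0.616, edgeR adjusted p = 0.00572) and rose 2.15-fold in shHMGA2-2 (95% interval 1.37 to 3.39, edgeR adjusted p = 0.0044). The direct difference between the lines was 2.68 on the log2 scale (edgeR adjusted p = 2.19e-06) and was 2.48 to 2.84 when each library was left out in turn.

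Each side of the PDGFRB difference rested on few counts. The fall in shHMGA2-1 lost its call without shNC replicate 2 (edgeR adjusted p = 0.105) and with limma on log2(FPKM + 1) (0.103). The rise in shHMGA2-2 was lost without shNC replicate 1 (0.0767), without shHMGA2-2 replicate 2 (0.079) and with DESeq2 (0.0816). Fibroblast and pericyte markers, among which PDGFRB is usually found, summed to 6.75 to 7.66 FPKM in shNC, 5.02 to 6.08 in shHMGA2-1 and 2.39 to 2.84 in shHMGA2-2, with DCN and LUM at 0. Most of the sum in shNC was CSPG4, with 781 and 679 counts (shNC), 233 and 164 (shHMGA2-1) and 62 and 59 (shHMGA2-2). ACTA2 rose 2.04-fold in shHMGA2-1 and 1.74-fold in shHMGA2-2 (edgeR adjusted p = 0.0103 and 0.0292), and COL1A1 rose 3.04-fold in shHMGA2-1. RGS5, by its entry with more counts, had 120 and 105 (shNC), 160 and 194 (shHMGA2-1) and 63 and 52 (shHMGA2-2). This entry rose 1.49-fold in shHMGA2-1 (edgeR adjusted p = 0.0125) and was a lower DEG in shHMGA2-2 (edgeR adjusted p = 0.000104), the reverse of PDGFRB. The other RGS5 entry had 56 and 64 counts (shNC), 66 and 63 (shHMGA2-1) and 43 and 36 (shHMGA2-2). That entry did not pass in shHMGA2-1 (log2 0.03, edgeR adjusted p = 0.9575). In shHMGA2-2 it fell 1.60-fold (edgeR adjusted p = 0.0245), under the 2-fold of a DEG. The part of these markers in the PDGFRB result was not tested.

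VEGFC, a lymphangiogenic ligand, was the most abundant VEGF family transcript by FPKM in every library, with 44.9% to 55.6% of the family sum. It had 987 and 981 counts (shNC), 798 and 734 (shHMGA2-1) and 661 and 750 (shHMGA2-2). All 4 knockdown libraries were below the controls. The decrease was 1.36-fold (edgeR adjusted p = 0.000438) and 1.48-fold (edgeR adjusted p = 9.30e-06), and 1.41-fold with both lines as 1 group (edgeR adjusted p = 0.0421). The family shares depend on the length scaling, with an exonic size of 2615 bases for VEGFC and 14431 for VEGFA. By counts VEGFA was above VEGFC in both knockdown lines, with 867 and 909 (shHMGA2-1) and 846 and 898 (shHMGA2-2).

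VEGFA, the main angiogenic ligand, was described in full after its values were seen. It had 589 and 627 counts (shNC), 867 and 909 (shHMGA2-1) and 846 and 898 (shHMGA2-2). The knockdown libraries were all above the controls, the reverse of VEGFC. The rise was 1.38-fold in shHMGA2-1 (95% interval 1.21 to 1.58, edgeR adjusted p = 0.000281) and 1.36-fold in shHMGA2-2 (95% interval 1.19 to 1.55, edgeR adjusted p = 0.000225), and the log2 difference between the knockdown lines was -0.03 (95% interval -0.21 to 0.16). VEGFB had 449 and 451 counts (shNC), 424 and 342 (shHMGA2-1) and 318 and 424 (shHMGA2-2). Its fall in shHMGA2-2 was 1.28-fold (edgeR adjusted p = 0.0154) and lost its call in 7 alternatives, among them DESeq2 (0.0649) and the fits without shNC replicate 1 (0.067), shNC replicate 2 (0.0814) or shHMGA2-2 replicate 1 (0.301). In shHMGA2-1 its log2 fold change was -0.31 (edgeR adjusted p = 0.0552), and it passed without shHMGA2-1 replicate 1 (0.00835), with RLE factors (0.0408), with no filter (0.0367) and with a filter of 1 CPM in 2 libraries (0.0488).

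PGF, placental growth factor, a ligand of FLT1, changed in opposite directions. It had 171 and 160 counts (shNC), 545 and 445 (shHMGA2-1) and 10 and 16 (shHMGA2-2). The lines were far apart, with shHMGA2-1 highest. PGF rose 2.83-fold in shHMGA2-1 (95% interval 2.33 to 3.44, edgeR adjusted p = 4.15e-09) and fell 13.3-fold in shHMGA2-2 (log2 -3.74, SE 0.24, edgeR adjusted p = 1.82e-12). The direct difference was 37.8-fold (log2 -5.24, SE 0.21, edgeR adjusted p = 2.99e-16). Its share of the VEGF ligand FPKM was 4.35% and 4.05% (shNC), 13.8% and 12.9% (shHMGA2-1) and 0.345% and 0.495% (shHMGA2-2). None of the 10 nearest tested genes on chromosome 14 was a DEG in the same direction in either line, and 1 was a DEG in the opposite direction in shHMGA2-2.

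Of the VEGF receptors, KDR was the only one tested. It had 58 and 57 counts (shNC), 60 and 46 (shHMGA2-1) and 44 and 61 (shHMGA2-2). The libraries of the 3 lines overlapped, and the log2 fold change was -0.20 (95% interval -0.72 to 0.33) in shHMGA2-1 and -0.21 (95% interval -0.74 to 0.31) in shHMGA2-2. FLT1 had 0 to 8 counts and FLT4 0 to 2. The ligands summed to 40.0 and 40.0 FPKM (shNC), 39.6 and 34.8 (shHMGA2-1) and 28.97 and 34.4 (shHMGA2-2), whereas KDR was at 0.54 ± 0.01 FPKM in shNC.

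Endothelial markers outside these families were lower in shHMGA2-2, as FGF5, FGF1 and PGF were. The 3 tested markers were also lower in shHMGA2-1 at an adjusted p under 0.05 by edgeR. In that line FGF1 was lower, FGF5 did not pass and PGF rose. The part of these markers in those results was not tested. The 10 genes, of which 6, 3 and 2 exceeded the floor in shNC, shHMGA2-1 and shHMGA2-2, summed to 64.1 to 66.8 FPKM in shNC, 44.8 to 51.2 in shHMGA2-1 and 8.70 to 9.17 in shHMGA2-2. Most of the sum in shNC and shHMGA2-1 was ESAM, an adhesion molecule, with 2805 and 2878 counts (shNC), 2254 and 1977 (shHMGA2-1) and 176 and 201 (shHMGA2-2). ROBO4 had 823 and 950 counts (shNC), 695 and 583 (shHMGA2-1) and 544 and 546 (shHMGA2-2). It fell 1.47-fold in shHMGA2-1 (edgeR adjusted p = 0.000122) and 1.72-fold in shHMGA2-2 (edgeR adjusted p = 4.17e-07), under the 2-fold of a DEG. In shHMGA2-2 ROBO4 (4.99 and 4.97 FPKM) was above ESAM (3.66 and 4.15 FPKM). PECAM1, a defining marker, had 14 and 11 counts (shNC), 2 and 0 (shHMGA2-1) and 2 and 0 (shHMGA2-2). It was called lower in both lines but passed the filter only through shNC, and no knockdown library exceeded the floor. TIE1 had 3 and 18 counts (shNC) and at most 5 elsewhere. ERG and EMCN were at 0, and CDH5 and VWF had at most 4 counts in any library.

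Genes that act with these ligands and receptors were taken as lists. Of 7 co-receptors, 4 were tested. NRP1, a co-receptor of VEGF ligands, and FLRT2, a membrane protein of the family that binds FGF receptors, fell in both lines. NRP1 had 17470 and 18094 counts (shNC), 4310 and 4517 (shHMGA2-1) and 483 and 430 (shHMGA2-2), a fall of 4.25-fold (edgeR adjusted p = 4.28e-17) and 41.2-fold (edgeR adjusted p = 1.97e-24). FLRT2 had 1933 and 2017 counts (shNC), 1026 and 982 (shHMGA2-1) and 66 and 64 (shHMGA2-2). The 7 genes summed to 93.5 to 96.8 FPKM in shNC, 25.0 to 26.0 in shHMGA2-1 and 4.53 to 4.69 in shHMGA2-2. Both genes were DEGs also between the knockdown lines. NRP2 rose by less than 2-fold in both lines. FLRT1 had 7 and 6 counts (shNC), 12 and 7 (shHMGA2-1) and 15 and 33 (shHMGA2-2). It was called higher in shHMGA2-2 but needed the libraries of that line to pass the filter.

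Of 10 genes for extracellular processing and binding of the ligands, 6 were tested. CCBE1, which promotes the maturation of VEGFC, had 1998 and 1814 counts (shNC), 830 and 889 (shHMGA2-1) and 59 and 59 (shHMGA2-2). It was a lower DEG in both lines, by 2.34-fold and 34.1-fold. PLAU, the urokinase protease, rose from 1425 and 1687 counts in shNC to 5235 and 4814 in shHMGA2-1 and 5657 and 5971 in shHMGA2-2, by 3.06-fold and 3.53-fold, and was a DEG in both. It was also a DEG with both lines as 1 group. FGFBP3 was a lower DEG in shHMGA2-2.

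Among 10 transcriptional targets and feedback inhibitors of FGF-ERK signaling, 0 were DEGs in shHMGA2-1 and 3 in shHMGA2-2, all lower, where 9.65% of all tested genes were lower DEGs. In shHMGA2-2, 9 of 10 fell and 1, SPRY2, rose at an adjusted p under 0.05 by edgeR, whereas in shHMGA2-1 4 fell and 1, SPRY4, rose. At this threshold 58.8% and 33.5% of all tested genes passed in either direction. The 3 DEGs, named after their values were seen, were DUSP6, an ERK phosphatase with 2534 and 2535 counts (shNC), 2532 and 2310 (shHMGA2-1) and 894 and 871 (shHMGA2-2), SPRY1 and ETV4. SPRY1 fell from 636 and 617 counts in shNC to 146 and 155 in shHMGA2-2. The median log2 fold change of the list was -0.17 in shHMGA2-1 and -0.85 in shHMGA2-2, beside 0.01 and 0.03 over all tested genes. With 1 group for both lines, 0 of the 10 passed.

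Of 10 receptor adaptors and first effectors, 0 were DEGs in any comparison. At any size 3 fell in shHMGA2-1, and 5 fell and 1 rose in shHMGA2-2, close to the 33.5% and 58.8% of all tested genes. Of 6 hypoxia regulators of VEGFA, EPAS1, a hypoxia-inducible factor, was a lower DEG in both lines, with 1052 and 1040 counts (shNC), 207 and 223 (shHMGA2-1) and 442 and 473 (shHMGA2-2). HIF1A, named after its values were seen, was higher in shHMGA2-1 (1.39-fold, edgeR adjusted p = 9.48e-07) and lower in shHMGA2-2 (1.77-fold, edgeR adjusted p = 2.58e-11).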

How the data were processed

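RNA from 6 MDA-MB-231 libraries (2 each of shNC, shHMGA2-1 and shHMGA2-2, grouped by sample title) was sequenced after mRNA capture. The authors deposited a single table with raw counts and FPKM per gene and library. The submitters' processing notes name HISAT2 2.2.1, HTSeq 0.6.1 and GRCh38.p13, and the strand setting and annotation are not given in the sources used here. The deposited FPKM values were recomputed from counts, exonic size and library total for 100% of values within 0.0051. Sample columns that were not used numbered 0.

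Library totals were 16461178 to 17167293 counts, and the floor of 3 counts covers counting error only, since reads carry no molecular identifiers. Counts were analysed with edgeR 4.0.16 in R 4.3.3 (TMM factors 0.958 to 1.05, filterByExpr by group, quasi-likelihood test, Benjamini-Hochberg adjustment over 16110 genes), in 1 model with 3 groups and, separately, with the 4 shHMGA2 libraries as 1 group. Alternatives were RLE and upper quartile factors, other filters, DESeq2 1.42.0, limma 3.58.1 on log2(FPKM + 1) and log2(FPKM + 0.1), the replicate number as a block, and each library left out. Scripts were tested on simulated data. The 2 libraries within each line differed beyond sampling noise (chi-square per degree of freedom 2.03 to 6.21).

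Members and lists were chosen with earlier results of these data known. Full values were given for members that were DEGs in a comparison of the 3-group model or had a mean of at least 5 FPKM in a line, and, beside this rule, for other tested members. Pathway genes named were up to 3 per list with the largest change among DEGs of both lines, and other list genes and the neighbors of members were named after their values were seen. Promoter windows came from RefSeq (GRCh38.p14) and were read in python 3.11.15. All 42 members lay on the same chromosome in GENCODE 29 as in the deposited table, 10 of them with the same start and end, and gene positions are those of the deposited table.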

Additional observations from a re-analysis of the deposited data

Results flagged for a closer look

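Of the 19 tested genes, 2 were DEGs against shNC in opposite directions in the 2 hairpin lines. Because they were picked by these calls, the direct edgeR comparison of shHMGA2-2 with shHMGA2-1 gives the size of the difference and is no separate evidence. PGF differed by -5.24 on the log2 scale (edgeR adjusted p = 2.99e-16), since it was above the controls in both shHMGA2-1 libraries and below them in both shHMGA2-2 libraries. PDGFRB differed by 2.68 (edgeR adjusted p = 2.19e-06), with the lines on the opposite sides. Among all 16110 tested genes, 79 were DEGs in opposite directions in the lines and 884 in the same direction. Groups of 2 libraries were too small for a test of single outlying libraries.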

How the results depend on the processing

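The numbers of members that were DEGs were 5 (shHMGA2-1 against shNC), 8 (shHMGA2-2 against shNC), 8 (shHMGA2-2 against shHMGA2-1) and 0 (both lines as 1 group). The 2 counts of 8 include FGF14, and both were 7 with a filter of 1 CPM in 2 libraries, which it did not pass. DESeq2 gave 2 for the last. With limma the first 3 were 1, 5 and 4 on log2(FPKM + 1), and on log2(FPKM + 0.1) the first was 3 and the second 5. A pseudocount shrinks the change of low genes by construction. Leaving out each library in turn gave 3 to 5, 7 to 9, 7 to 8 and 0 to 0, the lowest of the first without shNC replicate 2. FGF1, FGF5, PDGFA and PGF were DEGs in shHMGA2-2 against both other lines in each of these alternatives. Upper quartile factors moved the median of all genes by 0.115 (log2) in shHMGA2-2 against shNC.

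Replicate numbers did not pair the libraries: deviations of same-numbered libraries correlated at -0.0242, 0.00364 and -0.179. With the replicate number as a block the counts of DEGs were 5, 8, 8 and 0, and among the members' calls at any size the block changed that of FGFR4 between the knockdown lines (adjusted p = 0.0609). Crossing the numbers of shHMGA2-2, an alternative chosen after seeing the data, gave 8.

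Of the log2 fold changes of single members under the alternatives, 707 kept direction and side of the threshold, 44 lost the call, 7 gained it and 24 changed sign, the last only where neither value passed. With limma the falls in shHMGA2-1 were not called for FGFR1 (adjusted p = 0.0754 on log2(FPKM + 1), 0.0736 on log2(FPKM + 0.1)) and, on the latter scale, for FGF1 (0.0765) and PDGFA (0.0629). The sign changed with upper quartile factors for PDGFB in shHMGA2-2 against shNC (0.036) and, between the knockdown lines, for VEGFA (0.023), KDR (0.035) and VEGFB (0.0023). A filter of 1 CPM in 2 libraries gave 0.0055 for KDR. On log2(FPKM + 1) the same 4 values were 0.0055, 0.020, 0.014 and 0.0014, and on log2(FPKM + 0.1) they were 0.017, 0.025, 0.033 and 0.0011. Without single libraries the values ranged from -0.42 to 0.23 for PDGFB in shHMGA2-2, from -0.72 to 0.020 for FGF2 in shHMGA2-1, and, between the knockdown lines, from -0.25 to 0.18 for KDR, from -0.25 to 0.12 for VEGFB, from -0.078 to 0.022 for VEGFA, from -0.87 to 1.85 for FGF13 and from -0.41 to 0.11 for PDGFD. The causes were not tested.

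With 2 libraries a line and members such as PDGFB, FGF2 and FGF14 under 50 counts in every library, small differences were not detectable at this depth.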
